A study of Mus musculus with 4 samples.

Results

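The Elane-high neutrophil progenitors were bone marrow cells with high transcript counts of the neutrophil granule genes Elane, Prtn3 and Mpo, no UMI of the monocyte gene F13a1 and at most 1 detected gene of 5 mature neutrophil genes. A cell was a member when it held at least 2 unique molecular identifiers (UMIs) of Elane, at least 2 of Prtn3 and at least 3 of Mpo, no UMI of F13a1, and at most 1 detected gene among Mmp8, Mmp9, Retnlg, Ly6g and Fpr1. Cells were first kept when they had at least 500 genes, at least 1000 UMIs of genes, at most 10% mitochondrial UMIs and at least 80% of their hashtag UMIs from 1 hashtag. By this rule 1834 of 37717 kept cells were members. Because the members were chosen by these transcript counts, their levels of the rule's 9 genes and all comparisons with other cells are given as descriptions, without a test.

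The cells came from 6 female mice with the genotype Tppp3CreER LSLTdTomato, in which a tamoxifen-inducible Cre driven by Tppp3 switches on a red fluorescent reporter. Their age was 6 weeks by the sample labels, while the series text speaks of cells taken after 2 weeks. In tamoxifen+rapamycin mice, tamoxifen was injected together with rapamycin, an inhibitor of the growth kinase complex mTORC1, at postnatal days 0 and 3. Late rapamycin mice were injected with rapamycin at postnatal day 30, got no tamoxifen and were not labelled, and tamoxifen mice got tamoxifen without rapamycin at days 0 and 3. Each treatment had 2 mice. On each of 2 processing days, 1 mouse of each treatment was marked with a hashtag antibody and pooled into 1 droplet library, so that the day is also the replicate number. The protocol speaks of isolated stem cells of the bone marrow, but the cell type label lists Lin-Sca+Kit+, Lin-Sca-Kit+ and whole marrow cells with unstated proportions, so a share of kept cells also depends on that mix. No untreated mice are among the groups, and neither the reporter nor Cre was among the counted features. Treatments follow the deposited hashtag table, in which control was read as late rapamycin. The sample labels number the mice differently: read as hashtag numbers, they would exchange tamoxifen+rapamycin and tamoxifen.

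Neutrophils are made in the marrow from granulocyte-monocyte progenitors, and their granules are filled in a fixed sequence. Promyelocytes first make the primary (azurophil) granules, which hold myeloperoxidase (Mpo) and the serine proteases neutrophil elastase (Elane), proteinase 3 (Prtn3) and cathepsin G (Ctsg). Myelocytes then switch to the secondary granules, with lactoferrin (Ltf), cathelicidin (Camp) and neutrophilic granule protein (Ngp), a switch that depends on the transcription factor C/EBP epsilon (Cebpe). Cell division stops as maturation goes on, and gelatinase granules (Mmp8, Mmp9) and surface receptors follow. F13a1, which encodes a coagulation factor subunit, marks the monocyte branch among these early cells.

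Members came from every mouse: 315 cells and 251 cells in tamoxifen+rapamycin mice, 598 cells and 245 cells in late rapamycin mice and 248 cells and 177 cells in tamoxifen mice. Their median depth was 6830 UMIs and 9420 UMIs in tamoxifen+rapamycin mice, 9989.5 UMIs and 9210 UMIs in late rapamycin mice and 7008 UMIs and 9255 UMIs in tamoxifen mice, and the summed UMIs of the members of a mouse ranged from 1605018 to 5837834. The 2 libraries held 25058 and 21409 barcodes, of which 126 were in both; 4 member barcodes of day 1 and 3 of day 2 were also in the other library, none of them as a member there. Members with over 2 times the median UMIs of their mouse numbered 0 to 2 per mouse, and no doublet caller was run.

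The 4 genes that name the cells lie at 3 loci, and Elane and Prtn3 are neighbours. In GENCODE vM21 on GRCm38, Elane lies at chr10:79886247-79888215, plus strand, Prtn3 at chr10:79874476-79883174, plus strand, with 3072 bp between them, Mpo at chr11:87793581-87804413, plus strand and Ctsg at chr14:56099881-56102574, minus strand. Across members thinned to 3000 UMIs, Elane and Prtn3 counts varied together (Pearson r of log counts 0.67 to 0.83 within the 6 mice), as did Mpo and Ctsg (r 0.62 to 0.75), which lie on different chromosomes. These correlations are descriptions: all cells of a mouse share a library, and the counts of Elane, Prtn3 and Mpo were also used to choose the cells. The 250 bases before the RefSeq start of each gene (GRCm38.p6) are shown because these 4 genes define the cells, with matches to 4 motifs in capitals. The windows are chr10:79886062-79886311, plus strand; chr10:79879417-79879666, plus strand; chr11:87793534-87793783, plus strand; and chr14:56102575-56102824, minus strand, each read 5′ to 3′ on the gene's strand. The RefSeq start used lies inside the GENCODE gene model for Elane, Prtn3 and Mpo.
Elane: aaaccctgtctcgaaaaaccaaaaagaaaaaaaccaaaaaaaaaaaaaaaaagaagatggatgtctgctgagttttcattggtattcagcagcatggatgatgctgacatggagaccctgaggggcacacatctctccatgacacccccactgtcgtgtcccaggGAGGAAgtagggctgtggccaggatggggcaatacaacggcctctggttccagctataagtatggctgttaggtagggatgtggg
Prtn3: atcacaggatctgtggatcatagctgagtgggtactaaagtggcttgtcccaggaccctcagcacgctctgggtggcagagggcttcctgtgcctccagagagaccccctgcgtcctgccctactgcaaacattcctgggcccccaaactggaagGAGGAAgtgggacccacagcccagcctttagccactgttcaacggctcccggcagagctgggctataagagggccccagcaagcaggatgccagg
Mpo: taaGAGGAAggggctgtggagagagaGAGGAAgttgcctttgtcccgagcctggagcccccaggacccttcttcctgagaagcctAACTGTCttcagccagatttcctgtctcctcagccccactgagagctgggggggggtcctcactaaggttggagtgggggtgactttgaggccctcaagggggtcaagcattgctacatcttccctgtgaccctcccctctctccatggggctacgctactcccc
Ctsg: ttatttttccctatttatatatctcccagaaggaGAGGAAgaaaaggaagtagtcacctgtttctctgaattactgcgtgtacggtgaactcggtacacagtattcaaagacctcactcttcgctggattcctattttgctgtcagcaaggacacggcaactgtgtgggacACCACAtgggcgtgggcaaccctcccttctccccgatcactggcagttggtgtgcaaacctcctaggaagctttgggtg
The motifs searched on both strands were GAGGAA for PU.1, AACNGTC for MYB, TGTGGT for RUNX and TTGCNNAA for C/EBP, and no match overlapped another. GAGGAA was found in all 4 windows and in 23.1% of 27025 promoter windows of the same length: from -85 to -80 of the start in Elane, from -95 to -90 in Prtn3, from -247 to -242 and from -224 to -219 in Mpo, and from -216 to -211 in Ctsg. Mpo also held AACTGTC from -165 to -159 (the MYB motif, in 6.66% of windows), and Ctsg held ACCACA, the reverse complement of the RUNX motif (in 14.2% of windows), from -79 to -74. TTGCNNAA (in 9.55% of windows) was in none of the 4. A match describes letters in these windows and is no measured binding site.

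The 4 naming genes were abundant in the members of every mouse. Elane had 7631 and 7305 CPM in tamoxifen+rapamycin mice, 6814 and 6588 CPM in late rapamycin mice and 6917 and 6845 CPM in tamoxifen mice, where CPM is a gene's share of the UMIs of a mouse's members, scaled to a total of 1000000. Prtn3 had 7345 and 5899 CPM in tamoxifen+rapamycin mice, 9029 and 6379 CPM in late rapamycin mice and 5229 and 4987 CPM in tamoxifen mice, and Mpo had 7152 and 6758 CPM in tamoxifen+rapamycin mice, 4280.2 and 6286 CPM in late rapamycin mice and 6937 and 6432 CPM in tamoxifen mice. Mpo was lowest in the first late rapamycin mouse, where Prtn3 was highest. Ctsg, which the rule did not use, had 3175 and 2814 CPM in tamoxifen+rapamycin mice, 3413 and 2382 CPM in late rapamycin mice and 3122 and 2586 CPM in tamoxifen mice. After thinning to 3000 UMIs, Ctsg was detected in 93.9% to 98.8% of members, against 4.57% to 21.1% of B-lineage cells. The 21.1% rests on 19 B-lineage cells of the first late rapamycin mouse. Such cells should not make Ctsg, and free RNA and doublets, which could bring it, cannot be told apart here. B-lineage cells were taken as cells with at least 3 UMIs of Cd79a and Cd79b and a UMI of Ebf1. Before thinning, the median depth was 6830 to 9989.5 UMIs in members and 1366 to 2386 UMIs in B-lineage cells, and 96.2% to 99.2% of members held a Ctsg UMI.

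The summed levels of marker lists describe the members but do not check the rule, which used Elane, Prtn3 and Mpo of the primary granule list and limited mature neutrophil genes and F13a1. Members with 1 of the 5 mature genes made up 6.03% to 15.6% of the members of a mouse. Primary granule genes, a list of 17, made up 28592 to 34208 CPM in members, of which Lyz1 alone was at 0 in every mouse. The mature neutrophil list stood at 239 to 339 CPM, against 8677 to 12095 CPM in cells with secondary granule transcripts and Elane under 2 UMIs. Monocyte markers were at 571 to 1175 CPM with F13a1 at 0 by the rule, against 1468 to 3706 CPM in the 2210 cells that met every other condition but held F13a1. T and NK cell markers were at 0 to 4.30 CPM and erythroid markers at 67.3 to 145 CPM. Among transcription factors, Cebpe had 141 and 141 CPM in tamoxifen+rapamycin mice, 179.9 and 161 CPM in late rapamycin mice and 132 and 177 CPM in tamoxifen mice, Gfi1, a repressor needed for neutrophil formation, had 62.7 to 87.9 CPM, and the monocyte factor Klf4 was near 0 (0 to 0.623 CPM). The receptor for granulocyte colony-stimulating factor, Csf3r, was present at 78.5 to 109 CPM.

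**Figure D1:**
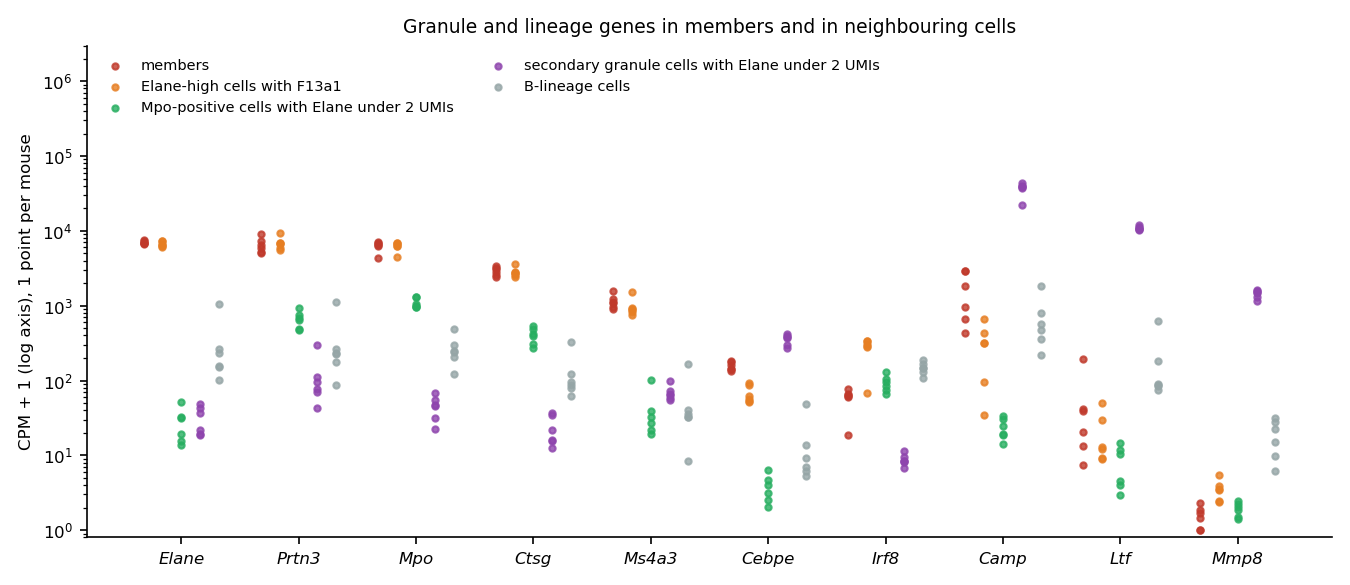
CPM + 1 on a log axis of 10 genes in members and in 4 other sets of cells, with 1 point per mouse. Elane, Prtn3, Mpo, Ctsg and Ms4a3 lie together at the top in members and in Elane-high cells with F13a1; Irf8 is lower in members than in those cells, and Camp and Ltf are far below secondary granule cells.

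Set against earlier cells, members had more transcripts of neutrophil genes and fewer of stem cell genes. The 2107 cells with at least 3 UMIs of Mpo, under 2 of Elane, no F13a1, at most 1 mature gene and no secondary granule programme are called earlier cells here. Cebpe averaged 155 ± 20.4 CPM in members and 2.78 ± 1.57 CPM in the earlier cells (mean ± SD over 6 mice, as for all values of this kind), a ratio of 55.7. Ms4a3, a membrane protein that marks granulocyte-monocyte progenitors, averaged 1144 ± 237 CPM in members and 39.2 ± 31.3 CPM in the earlier cells. Ly6c2, a surface antigen of myeloid cells, had the highest ratio, 96.9, and the low-affinity Fc receptor gene Fcgr3 a ratio of 22.4. In the other direction, Flt3, a receptor of multipotent and lymphoid progenitors, averaged 22.8 ± 3.24 CPM in members and 271 ± 53.7 CPM in the earlier cells. The stem cell factors Meis1, Mecom and Hlf were lower in members by 5.18-, 5.17- and 4.25-fold. All of these differences had the same direction in 6 of 6 mice.

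Against later cells, members had far more Ctsg and protein-folding transcripts. Later cells are here the 4290 cells with at least 2 of Ltf, Camp and Ngp at 3 or more UMIs and Elane under 2. Ctsg averaged 2915 ± 390.2 CPM in members and 21.8 ± 10.5 CPM in these later cells, and the cysteine protease inhibitor gene Cst7 195 ± 16.2 CPM in members and 3.15 ± 2.40 CPM in later cells. Calr, a chaperone of the endoplasmic reticulum, averaged 2449 ± 189.5 CPM in members and 119 ± 32.9 CPM in the later cells, and the folding genes Sdf2l1 and Pdia4 were 26.9- and 15.5-fold higher in members. Srm, an enzyme of polyamine synthesis, was 15.7-fold higher. Ltf, by which the later cells were chosen, averaged 51.2 ± 69.5 CPM in members and 10885 ± 546 CPM in the later cells, a difference set by that choice. Outside the genes of the choice, S100a6, a calcium-binding protein, was 240.2-fold and Cd177, a neutrophil surface protein, 52.9-fold lower in members. The summed list of 25 folding genes stood at 9128 to 14213 CPM in members, 3584 to 5576 CPM in earlier cells and 1576 to 2445 CPM in later cells. Genes of ribosome biogenesis were at 5750.1 to 8054 CPM in members, 5132 to 7458 CPM in earlier cells and 557 to 1039 CPM in later cells. S phase genes, like those of ribosome biogenesis, overlapped between members and earlier cells, with 3599 to 4254 CPM in members, 3872 to 4495 CPM in earlier cells and 851 to 1293 CPM in later cells.

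The nearest cells were those that differed from members only by F13a1. Irf8, the transcription factor of the monocyte and dendritic branch, averaged 57.1 ± 20.2 CPM in members and 269 ± 101 CPM in Elane-high cells with F13a1, and Ly86, a monocyte gene, averaged 27.6 ± 11.9 CPM in members and 164 ± 55.8 CPM in cells with F13a1. The chemokine receptor of monocytes, Ccr2, was 2.17-fold lower in members. Higher in members were Cebpe, at 155 ± 20.4 CPM in members and 66.5 ± 18.5 CPM in cells with F13a1, and Cd63, a membrane protein of primary granules, with a ratio of 2.23. Cpa3, a protease of mast cell and basophil progenitors, had a ratio of 14.4, with 15.2 to 196 CPM in members across mice. It came from part of the members: 38 to 76 of each mouse held it, and 5 to 24 held 5 or more UMIs. Around the limits of the rule, values were pooled over the cells of all mice, unlike the means over mice above. At the F13a1 limit, the 584 cells with exactly 1 UMI had 66.9 CPM of Irf8 and 123 CPM of Cebpe. The 1626 with 2 or more had 257 CPM of Irf8 and 56.8 CPM of Cebpe. The first late rapamycin mouse gave 258 of the 584 and 575 of the 1626 cells. At the Elane limit, the 122 members with exactly 2 UMIs had 935 CPM of Ctsg and 139 CPM of Ms4a3, and the 263 cells just outside with 1 UMI had 698 CPM of Ctsg and 88.4 CPM of Ms4a3. At the Mpo limit, the 25 members with exactly 3 UMIs had 345 CPM of Cebpe and 13299 CPM of Ngp, a secondary granule gene. The 24 cells just outside with 2 UMIs had 373 CPM of Cebpe and 18101 CPM of Ngp. In both sets 16 cells came from the first late rapamycin mouse, so these pooled values rest largely on that mouse. The limits of Prtn3 and of the mature genes had 8 and 184 members just inside and 7 and 15 cells just outside.

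After thinning to 3000 UMIs, most members held no UMI of the secondary granule genes Ltf, Camp and Ngp, and some held many. Thinned to 3000 UMIs, a member held a median of 16 to 20 UMIs of Elane, 12 to 21 of Mpo and 6 to 9 of Ctsg depending on the mouse, and the quartiles of the Elane counts in the first tamoxifen+rapamycin mouse were 9 and 32 UMIs. Camp was at a median of 0 in every mouse and reached 116 to 243 UMIs in the highest member of each mouse. Members with 3 or more UMIs of Ltf, Camp and Ngp together made up 4.50% and 2.03% in tamoxifen+rapamycin mice, 26.4% and 5.33% in late rapamycin mice and 1.65% and 10.5% in tamoxifen mice. Members with 0 made up 74.3% and 87.8% in tamoxifen+rapamycin mice, 55.4% and 82.4% in late rapamycin mice and 78.1% and 80.2% in tamoxifen mice. The first late rapamycin mouse was highest, with 156 of 590 thinned members (exact 95% Clopper-Pearson interval 22.9% to 30.2%), while the second late rapamycin mouse had 13 of 244 (2.87% to 8.94%), inside the range of the other mice. Such intervals cover counting error only. A single Camp UMI did not set members apart from B-lineage cells. Camp was detected in 6.10% to 35.3% of thinned members and in 7.19% to 31.6% of thinned B-lineage cells. The 31.6% rests on 19 B-lineage cells of the first late rapamycin mouse. The cut of 3 UMIs was not applied to B-lineage cells. Without thinning, Camp had 430 to 2933 CPM in members and 220 to 1824 CPM in B-lineage cells. Ngp had 158 to 1760 CPM in members and 247 to 1942 CPM in B-lineage cells. Whether the cut sets members apart from such cells was therefore not tested. Free RNA and doublets cannot be told apart here.

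**Figure D2:**
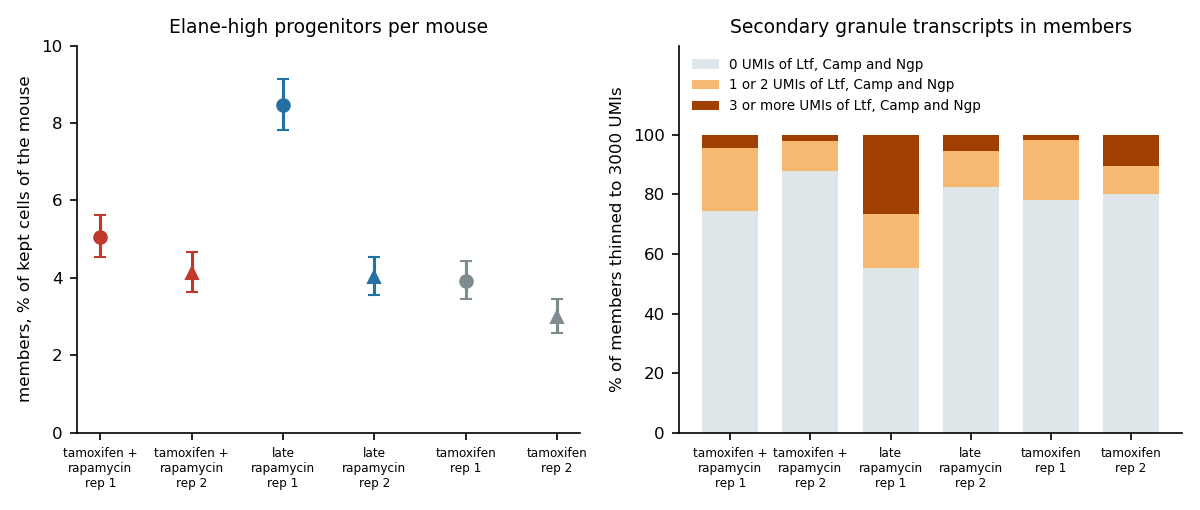
Left, members as a percentage of the kept cells of each mouse with exact 95% intervals; right, thinned members of each mouse split by their summed UMIs of Ltf, Camp and Ngp. The first late rapamycin mouse is highest on both sides, with 8.46% of kept cells and 26.4% of members with 3 or more UMIs.

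Members with secondary granule transcripts also had higher levels of other later neutrophil genes and of Fcnb, which is in the primary granule list. The comparison uses the 4 mice with at least 10 such members (the first tamoxifen+rapamycin mouse, both late rapamycin mice and the second tamoxifen mouse) and gives mean CPM in members with 3 or more UMIs against members with 0. S100a9, a subunit of calprotectin, had 48264 CPM (range 36333 to 60897) against 302 CPM (range 128 to 797), and Chil3, a chitinase-like protein, had 2457 CPM (range 1214 to 3821) against 8.32 CPM (range 1.66 to 23.4). Cybb, the membrane subunit of the NADPH oxidase that makes reactive oxygen, had 965 CPM (range 852 to 1071) against 21.2 CPM (range 4.83 to 52.0), and the 7 oxidase genes together had 4569 against 996 CPM. Fcnb, a ficolin made by immature neutrophils, had 2245 CPM (range 665 to 3923) against 29.2 CPM (range 14.9 to 63.5). Cebpe had 499.8 CPM (range 429 to 556) against 128 CPM (range 81.5 to 149) and Cebpd had 183 CPM (range 143 to 205) against 46.6 CPM (range 33.8 to 67.3). Each of these 6 genes was higher with 3 or more UMIs in 4 of 4 mice. The median depth before thinning was 6299 to 8593.5 UMIs with 3 or more UMIs and 6795 to 10431 UMIs with 0. Doublets were not called, and their part in these values was not tested.

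Primary granule genes differed from one another along this axis. Elane was 1.57-fold and Prtn3 1.44-fold higher with 3 or more UMIs in 4 of 4 mice, and so was their intracellular inhibitor Serpinb1a, 3.88-fold. Fcnb was 76.9-fold, Lyz2 21.8-fold and Cd63 2.58-fold higher in 4 of 4 mice. Calr was 3.20-fold, Ctsg 2.01-fold and Mpo 1.32-fold lower in 4 of 4 mice. Elane, Prtn3 and Mpo were used to choose the members, and cells under their limits were left out. The ratios of these genes are thus descriptions that the rule can shape. Genes of earlier cells were lower as well: Cd34, a surface antigen of progenitors, had 21.1 CPM (range 0 to 71.4) against 162 CPM (range 122 to 202), the receptor gene Kit had 49.2 CPM (range 10.7 to 111) against 180.4 CPM (range 95.8 to 239), and the progenitor factor Myb had 207 CPM (range 25.6 to 381) against 904 CPM (range 614 to 1066). Cebpa, which starts granulocyte commitment, was 7.42-fold and Sox4 7.17-fold lower. Some of these values rest on few UMIs: members with 3 or more held 8 of Cebpa, 12 of Sox4, 9 of Cd34 and 14 of Kit over the 4 mice. The folding list stood at 6547 against 11546 CPM and the ribosome biogenesis list at 2579 against 7162 CPM. The division marker Mki67 was 2.32-fold higher in 4 of 4 mice, with the G2M list at 5456 against 3032 CPM and the S phase list at 3998 against 3861 CPM. CPM are relative: S100a8 and S100a9 alone made up 45582 and 48264 CPM of the members with 3 or more UMIs.

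**Figure D3:**
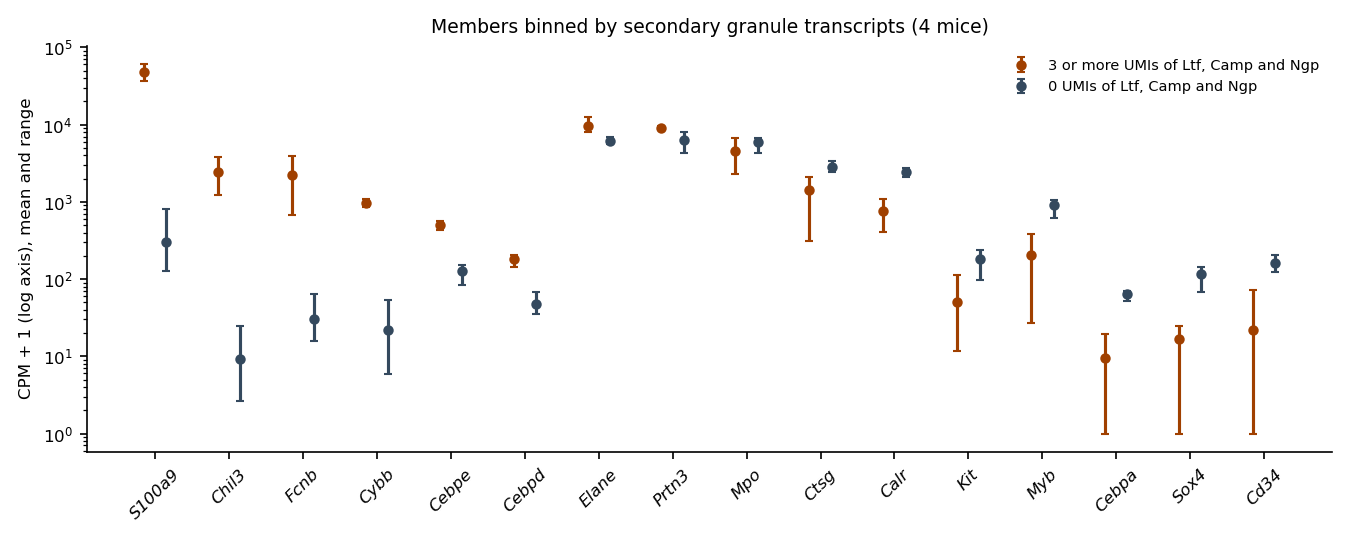
Mean CPM + 1 (log axis) of 16 genes in thinned members with 3 or more UMIs and with 0 UMIs of Ltf, Camp and Ngp; bars span the lowest to the highest of 4 mice. S100a9, Chil3, Fcnb and Cybb are far higher with 3 or more UMIs, Elane and Prtn3 slightly higher, and Ctsg, Kit, Myb, Cebpa, Sox4 and Cd34 lower. Elane, Prtn3 and Mpo were also used to choose the members.

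Members also differed in Cebpe and in the genes of cell division. Thinned members with 2 or more UMIs of Cebpe made up 9.65% and 10.2% in tamoxifen+rapamycin mice, 14.7% and 9.84% in late rapamycin mice and 8.68% and 14.5% in tamoxifen mice. They held a mean of 10.3 to 64.6 UMIs of Ltf, Camp and Ngp per cell across mice, against 0.199 to 4.91 in members with no Cebpe UMI, and were higher in each mouse. Elane averaged 20 to 30.0 UMIs in the first set and 15.5 to 19.4 UMIs in the second. Because the rule used Elane, these values are a description. Members with at least 20 UMIs of the G2M list made up 10.2 to 18.5% of thinned members across mice. Members with under 5 made up 35.7% and 44.3% in tamoxifen+rapamycin mice, 16.3% and 40.2% in late rapamycin mice and 31.0% and 41.3% in tamoxifen mice, lowest in the first late rapamycin mouse.

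Of the kept cells of each mouse, members were 5.06% and 4.13% in tamoxifen+rapamycin mice, 8.46% and 4.02% in late rapamycin mice and 3.92% and 2.99% in tamoxifen mice. On each day the tamoxifen mouse had the lowest share. Tamoxifen+rapamycin mice averaged 4.59% ± 0.658 and tamoxifen mice 3.46% ± 0.663 (SD, n = 2 each), a difference of 1.14 points, with 1.13 points on day 1 and 1.14 points on day 2. Late rapamycin mice averaged 6.24% ± 3.14, a difference from tamoxifen of 2.79 points, with 4.53 on day 1 and 1.04 on day 2. Between tamoxifen+rapamycin and late rapamycin the difference was -1.65 points, with -3.40 on day 1 and 0.102 on day 2. In the exact two-sided permutation test the p was 0.3333, 0.3333 and 1 for these 3 comparisons, and 0.3333 is the smallest p that 2 against 2 mice can give, so this test, which does not use the day, could not pass a threshold of 0.05. Without the first late rapamycin mouse, late rapamycin minus tamoxifen was 0.569 points and tamoxifen+rapamycin minus late rapamycin turned to 0.567 points. That mouse also had the highest share of kept cells with 2 or more mature neutrophil genes, 19.4%, against 8.37% to 14.4% in the others, and whether the 2 shares are linked was not tested.

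The first late rapamycin mouse stood apart in the members' transcripts. With log2(CPM + 5), 165 of 10250 tested genes lay over 1 log2 unit outside the range of the other 5 mice in it, 70 above and 95 below, against 1 to 3 genes for each of the other mice. Between the 2 mice of a treatment, 21 genes differed by over 1 log2 unit in tamoxifen+rapamycin, 427 in late rapamycin and 53 in tamoxifen. The genes that follow as apart in this mouse were picked after their values were seen, and no test is given for them.

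Among those above the range were 11 of 13 tested secondary granule genes. S100a8 stood at 12860.1 CPM in that mouse and 1089 to 4069.7 CPM in the other 5 mice. Lcn2, a siderophore-binding granule protein, stood at 1247 CPM in that mouse and 49.3 to 118 CPM in the other 5 mice. Lrg1, another granule glycoprotein, stood at 159 CPM in that mouse and 8.07 to 18.7 CPM in the other 5 mice. Interferon-induced transmembrane proteins were also high there: Ifitm1 had 1209.9 CPM in that mouse and 81.6 to 127 CPM in the other 5 mice, and Ifitm3 had 762 CPM in that mouse and 130.2 to 168 CPM in the other 5 mice. Of the 16 tested genes of the interferon response list, only 1 (Ifitm3) lay above the range and 0 below. Cebpb, the C/EBP factor used when granulocyte output is stepped up, had 237 CPM in that mouse and 76.9 to 96.1 CPM in the other 5 mice. The shared beta receptor chain of GM-CSF and interleukin-3, Csf2rb, had 135 CPM in that mouse and 41.2 to 55.5 CPM in the other 5 mice, and Pim1, a kinase induced by cytokines, had 246 CPM in that mouse and 44.1 to 91.1 CPM in the other 5 mice.

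Below the range lay 0 of 6 tested stem cell genes, 1 of 10 early granulocyte-monocyte genes (Kit, with Csf2rb above the range) and 3 of 21 granulocyte transcription factors (Irf8, Zeb2 and Gata2, with 4 others above the range). Kit had 71.3 CPM in that mouse and 161 to 202 CPM in the other 5 mice, Irf8 had 17.5 CPM in that mouse and 59.9 to 75.6 CPM in the other 5 mice, and Zeb2, a repressor in myeloid and dendritic precursors, had 247 CPM in that mouse and 739 to 839.6 CPM in the other 5 mice. Angpt1, a ligand of the stem cell receptor Tie2, had 78.8 CPM in that mouse and 294 to 492 CPM in the other 5 mice. Esr1, the oestrogen receptor to which tamoxifen binds, had 44.9 CPM in that mouse and 111 to 125 CPM in the other 5 mice. The shift was partly there in members without secondary granule transcripts: in members with 0 UMIs of Ltf, Camp and Ngp, 30 of the 70 high genes and 47 of the 95 low genes again lay over 1 log2 unit outside the range. These cells are part of the same members, so this overlap is no separate support. Over all tested genes, 114 lay apart in that mouse in these cells, and 5 to 39 in each of the other mice. In these cells Ifitm1 had 1703 CPM in that mouse and 77.9 to 147 CPM in the other 5, Cebpb had 191 CPM in that mouse and 50.7 to 100.3 CPM in the other 5, Lcn2 had 146 CPM in that mouse and 12.1 to 35.3 CPM in the other 5 and Irf8 had 25.5 CPM in that mouse and 56.4 to 83.3 CPM in the other 5. The mouse was also apart in other cells, with 130 genes in Elane-high cells with F13a1, 118 in later cells, 44 in earlier cells and 405 in B-lineage cells. Its B-lineage cells, only 102 of them, held 9116 CPM of S100a8 against 709 to 1359 CPM in the other mice. So this neutrophil gene was also higher there in cells that should lack it. Other genes named as high in its members were higher in its B-lineage cells too. Lcn2 had 1075 CPM there against 106 to 159 CPM, and Lrg1 95.8 against 3.00 to 10.2 CPM. Ifitm1 had 209 against 27.7 to 58.0 CPM, Ifitm3 331 against 58.6 to 108 CPM and Cebpb 60.9 against 9.74 to 20.6 CPM. The part of free RNA or doublets in the members' values was not tested.

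**Figure D4:**
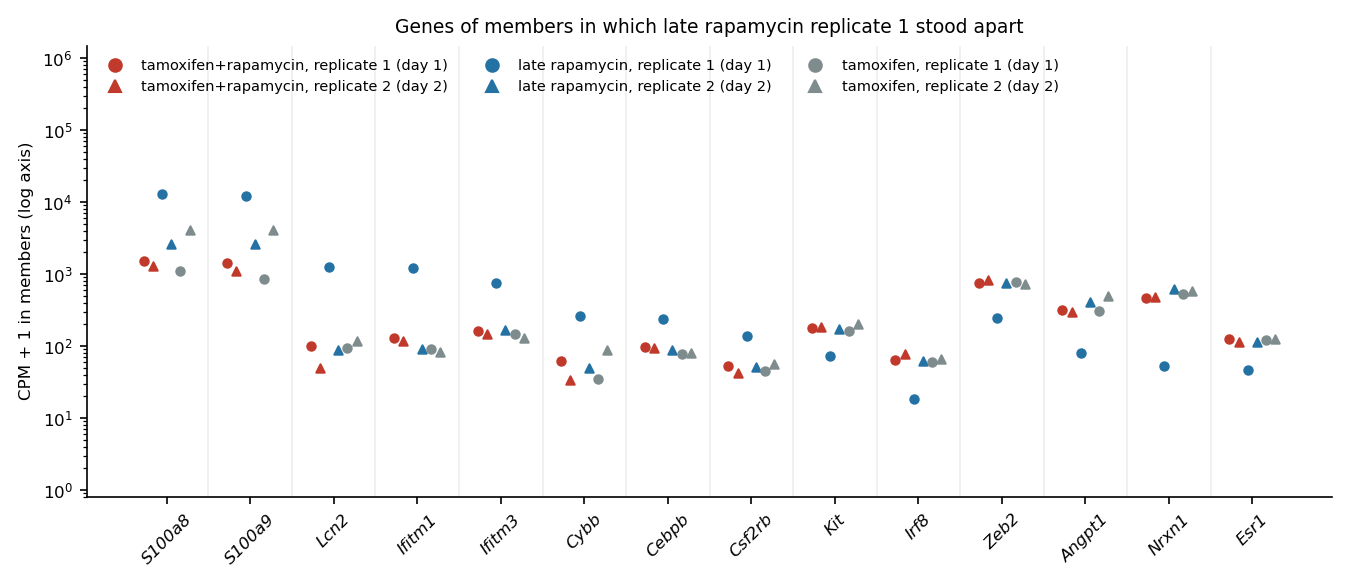
CPM + 1 in members (log axis) of 14 genes by mouse, circles for day 1 and triangles for day 2. The first late rapamycin mouse (blue circle) lies above the other 5 mice for S100a8 to Csf2rb and below them for Kit to Esr1, while the second late rapamycin mouse (blue triangle) lies with the other 4.

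Between tamoxifen+rapamycin and tamoxifen, which asks what rapamycin added when given with tamoxifen after birth, no gene was called in members. edgeR called 0 of 10250 tested genes (0%) at an adjusted p under 0.05, DESeq2 called 0 (0%), and 203 genes had an unadjusted p under 0.05. Of the naming genes, Ctsg, which the rule did not use, had a log2 fold change of 0.08 ± 0.13 (SE). Prtn3, whose values in both tamoxifen+rapamycin mice were above those in both tamoxifen mice, had 0.36 ± 0.13 (SE) with all mice. Without the first late rapamycin mouse, which is in neither group, the log2 fold change of Prtn3 was 0.37. Because the rule used Prtn3, its values are a description, without a test. For Plekha7, which encodes a protein of cell junctions, members had 17.4 and 18.7 CPM in tamoxifen+rapamycin mice, 18.7 and 35.2 CPM in late rapamycin mice and 1.13 and 1.87 CPM in tamoxifen mice. Both tamoxifen mice lay far below the other 4, on 2 and 3 UMIs, and the log2 fold change was 3.57 ± 0.46 (SE), adjusted p = 0.246.

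Ctse, which encodes the protease cathepsin E, had 64.1 and 77.8 CPM in tamoxifen+rapamycin mice, 5.48 and 24.5 CPM in late rapamycin mice and 17.0 and 28.0 CPM in tamoxifen mice. The 2 tamoxifen+rapamycin mice were above all others, with a log2 fold change of 1.71 ± 0.35 (SE) (adjusted p = 0.975). Eif3j2, a copy of a translation initiation factor gene that may share reads with Eif3j1, had 19.2 and 21.2 CPM in tamoxifen+rapamycin mice, 2.40 and 2.58 CPM in late rapamycin mice and 4.52 and 0.623 CPM in tamoxifen mice; it too was high in both tamoxifen+rapamycin mice. Fam102b had 64.6 and 84.6 CPM in tamoxifen+rapamycin mice, 24.0 and 33.9 CPM in late rapamycin mice and 36.2 and 43.6 CPM in tamoxifen mice, with a log2 fold change of 0.90 ± 0.18 (SE) (adjusted p = 0.975). The interferon-inducible gene Ifi202b was counted in members of the tamoxifen mice alone, at 14.1 and 5.61 CPM on 25 and 9 UMIs, and had 0 UMIs in members of the other 4 mice.

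By groups of genes, 13 of 16 tested primary granule genes had a positive log2 fold change in this comparison, with a median of 0.11, and 0 of 13 secondary granule genes did, with a median of -0.79, against 0.00 over all genes. The primary granule list holds Elane, Prtn3 and Mpo, which were used to choose the members, so its count and median are descriptions. The summed level of the secondary granule list was 5202 and 3833 CPM in tamoxifen+rapamycin mice, 34309.6 and 8559 CPM in late rapamycin mice and 3354 and 12956 CPM in tamoxifen mice, so that tamoxifen+rapamycin and tamoxifen overlap. Genes of cholesterol synthesis, which mTORC1 promotes through SREBP factors, had 13 of 14 positive log2 fold changes with a median of 0.50; Idi1, for example, had 44.4 and 30.6 CPM in tamoxifen+rapamycin mice, 48.3 and 31.4 CPM in late rapamycin mice and 24.9 and 24.9 CPM in tamoxifen mice. The 26 G2M genes had 6 positive values and a median of -0.14. In the fit with all 6 mice, no member of any of the 33 lists was called.

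Among further genes with small p in this comparison, none was called. Mospd3, an organiser of contacts between membranes, had 32.5 and 25.5 CPM in tamoxifen+rapamycin mice, 42.1 and 75.6 CPM in late rapamycin mice and 56.0 and 77.3 CPM in tamoxifen mice, lowest in both tamoxifen+rapamycin mice, with a log2 fold change of -1.17 ± 0.26 (SE). Ly6k, a lipid-anchored surface protein, had 2.29 and 2.97 CPM in tamoxifen+rapamycin mice, 13.02 and 15.5 CPM in late rapamycin mice and 12.4 and 9.35 CPM in tamoxifen mice, again lowest there, with a log2 fold change of -2.02 ± 0.44 (SE). Hspa1b, the inducible HSP70 chaperone, had 2.29 and 5.10 CPM in tamoxifen+rapamycin mice, 25.4 and 11.6 CPM in late rapamycin mice and 17.0 and 11.2 CPM in tamoxifen mice, and its near-identical copy Hspa1a can share its reads. The inducible chaperone was thus lowest in both tamoxifen+rapamycin mice, with a log2 fold change of -1.85 ± 0.53 (SE) against tamoxifen. Pdia6, a disulfide isomerase of the endoplasmic reticulum, had 611 and 563 CPM in tamoxifen+rapamycin mice, 675 and 512 CPM in late rapamycin mice and 474 and 418 CPM in tamoxifen mice, with a log2 fold change of 0.40 ± 0.15 (SE). Msmo1, a sterol oxidase of cholesterol synthesis, had 18.3 and 13.6 CPM in tamoxifen+rapamycin mice, 20.4 and 13.3 CPM in late rapamycin mice and 9.61 and 8.72 CPM in tamoxifen mice, lowest in both tamoxifen mice. The adjusted p of these 5 genes was 1.00 by edgeR.

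Between late rapamycin and tamoxifen, 1 gene passed the test. edgeR called Plekha7 alone of 10250 genes (0.00976%), higher in late rapamycin, while 834 genes had an unadjusted p under 0.05 and DESeq2 called 6 (0.0585%): Plekha7, Rabgef1, Adgrg1, Hsph1, Xylt1 and a predicted gene model. The log2 fold change of Plekha7 was 4.14 ± 0.43 (SE) with an edgeR adjusted p of 0.0401, and both late rapamycin mice were above both tamoxifen mice. Plekha7 (ENSMUSG00000045659) lies at chr7:116123485-116308376, minus strand (GRCm38). The call did not hold without the day as a block (adjusted p = 0.159), with members drawn after thinning (0.0724), with no mature gene allowed (0.0791), or with F13a1 allowed up to 1 UMI (0.0858) or without limit (0.0957). The same order was seen in other cells: Elane-high cells with F13a1 had 11.1 and 10.2 CPM in tamoxifen+rapamycin mice, 15.0 and 19.1 CPM in late rapamycin mice and 0 and 0.993 CPM in tamoxifen mice. All other kept cells had 19.5 and 20.7 CPM in tamoxifen+rapamycin mice, 20.3 and 38.4 CPM in late rapamycin mice and 7.85 and 8.50 CPM in tamoxifen mice of Plekha7, again lowest in the tamoxifen mice.

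Rabgef1, Adgrg1, Hsph1 and Xylt1, called by DESeq2, had the same sign on both days. Rabgef1 (chr5:130171798-130214342, plus strand), which activates the endosomal GTPase Rab5, had 48.1 and 24.2 CPM in tamoxifen+rapamycin mice, 86.5 and 74.8 CPM in late rapamycin mice and 24.3 and 22.4 CPM in tamoxifen mice; its log2 fold change was 1.85 ± 0.24 (SE), with an adjusted p of 0.0788 in edgeR and 0.00279 in DESeq2. The first tamoxifen+rapamycin mouse lay between the groups. Adgrg1 (chr8:94974751-95014217, plus strand), an adhesion receptor also known as GPR56, had 85.2 and 101 CPM in tamoxifen+rapamycin mice, 36.3 and 61.0 CPM in late rapamycin mice and 111 and 137 CPM in tamoxifen mice, lowest in late rapamycin, with a log2 fold change of -1.33 ± 0.17 (SE) and adjusted p of 0.0788 in edgeR and 0.00466 in DESeq2. Hsph1 (chr5:149614287-149636376, minus strand), a large heat shock protein, had 56.3 and 47.6 CPM in tamoxifen+rapamycin mice, 119 and 87.7 CPM in late rapamycin mice and 41.3 and 40.5 CPM in tamoxifen mice, highest in late rapamycin, with a log2 fold change of 1.40 ± 0.20 (SE) and adjusted p of 0.116 in edgeR and 0.0168 in DESeq2. Xylt1 (chr7:117380979-117673580, plus strand), which starts glycosaminoglycan chains, had 143 and 151 CPM in tamoxifen+rapamycin mice, 40.3 and 106 CPM in late rapamycin mice and 192 and 173 CPM in tamoxifen mice, with the lowest value in the first late rapamycin mouse. Serpinf1, a secreted serpin, had 27.5 and 30.6 CPM in tamoxifen+rapamycin mice, 9.76 and 11.2 CPM in late rapamycin mice and 28.8 and 33.0 CPM in tamoxifen mice, with a log2 fold change of -1.49 ± 0.23 (SE) (edgeR adjusted p = 0.186).

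Several groups had mostly positive log2 fold changes in late rapamycin against tamoxifen, and their medians were lower without the first late rapamycin mouse. The median over all genes was -0.0017 with that mouse and -0.0067 without it. Secondary granule genes were positive in 13 of 13, with a median of 1.19, which became -0.21 without that mouse. Of 25 folding genes 22 were positive, with a median of 0.35 and 0.062 without it; Hspa5, the main chaperone of the endoplasmic reticulum, had 1247 and 1077 CPM in tamoxifen+rapamycin mice, 2243 and 1353 CPM in late rapamycin mice and 1240.2 and 1044 CPM in tamoxifen mice. Heat shock genes were positive in 11 of 11, with medians of 0.52 and 0.17 without it. Hspa8, the constitutive cytosolic chaperone, had 990.3 and 986 CPM in tamoxifen+rapamycin mice, 1867 and 1553 CPM in late rapamycin mice and 1219 and 1184 CPM in tamoxifen mice, so that both late rapamycin mice were above the other 4. ATF4 targets were positive in 10 of 10, with medians of 0.39 and 0.10 without it, ribosome biogenesis genes in 16 of 16 (0.23 and 0.081), glycolysis genes in 13 of 14 (0.34 and 0.013) and cholesterol synthesis genes in 13 of 14 (0.61 and 0.50). The 2 cold-inducible genes were negative, with Rbm3 at 537 and 529 CPM in tamoxifen+rapamycin mice, 541 and 416 CPM in late rapamycin mice and 751 and 669 CPM in tamoxifen mice. Plekha7, in the list of genes called in stem cells of these mice earlier, was the only listed gene called, and a list picked from these mice is no independent evidence.

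Single genes of these groups differed in how far both late rapamycin mice took part, and none of those named here was called. Some were highest in the first late rapamycin mouse, with the second close to the other mice: the folding gene Creld2 had 85.2 and 68.4 CPM in tamoxifen+rapamycin mice, 196 and 86.4 CPM in late rapamycin mice and 74.6 and 56.1 CPM in tamoxifen mice, and Mthfd2, a mitochondrial folate enzyme and ATF4 target, had 31.1 and 27.6 CPM in tamoxifen+rapamycin mice, 85.5 and 40.8 CPM in late rapamycin mice and 30.0 and 38.0 CPM in tamoxifen mice. Others were high in both late rapamycin mice. Slc2a1, the glucose transporter GLUT1, had 10.1 and 11.0 CPM in tamoxifen+rapamycin mice, 18.7 and 15.0 CPM in late rapamycin mice and 7.35 and 8.10 CPM in tamoxifen mice, with a log2 fold change of 1.21 ± 0.33 (SE). Psph, the last enzyme of serine synthesis, had 46.7 and 45.9 CPM in tamoxifen+rapamycin mice, 75.5 and 53.7 CPM in late rapamycin mice and 39.0 and 33.6 CPM in tamoxifen mice, with a log2 fold change of 0.90 ± 0.21 (SE). Cirbp, a cold-inducible RNA-binding protein, was lowest in both late rapamycin mice, with 47.2 and 52.7 CPM in tamoxifen+rapamycin mice, 23.5 and 37.4 CPM in late rapamycin mice and 56.5 and 48.0 CPM in tamoxifen mice and a log2 fold change of -0.78 ± 0.21 (SE). The edgeR adjusted p was 0.607 for each of these genes.

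**Figure D5:**
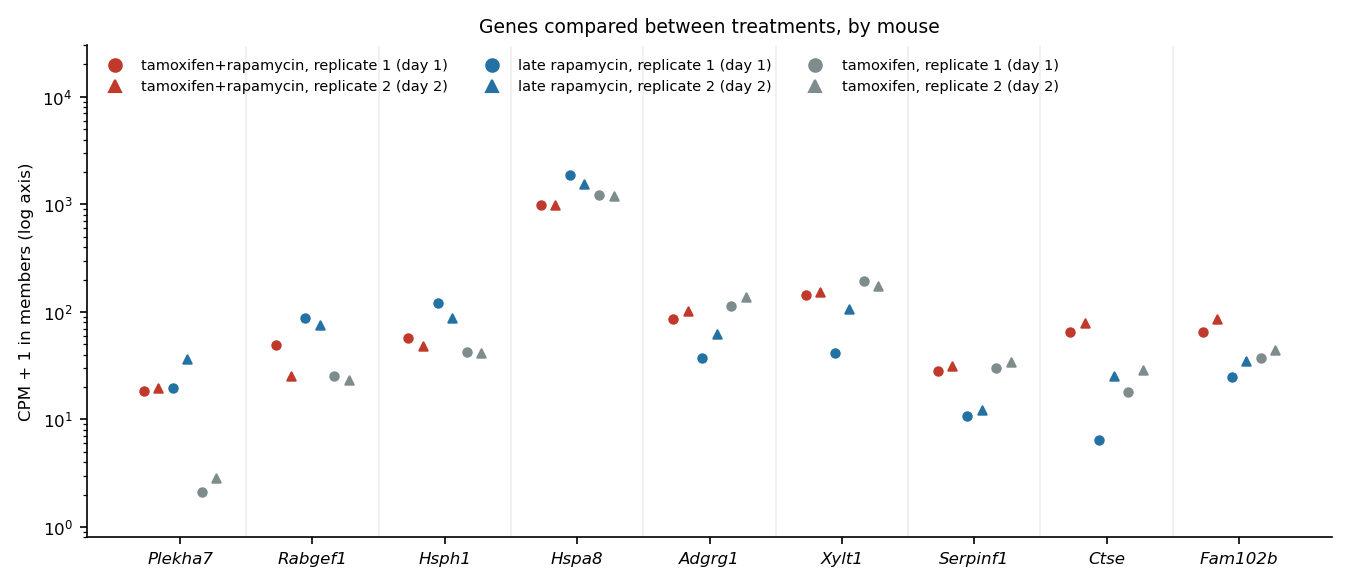
CPM + 1 in members (log axis) of 9 genes by mouse, with colours for treatments and circles and triangles for days 1 and 2. Plekha7 is low in both tamoxifen mice, Rabgef1, Hsph1 and Hspa8 are highest and Adgrg1 and Serpinf1 lowest in both late rapamycin mice, and Ctse and Fam102b are highest in both tamoxifen+rapamycin mice.

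Between tamoxifen+rapamycin and late rapamycin, which differ both in the time of rapamycin and in tamoxifen, edgeR called 0 of 10250 genes (0%), with 742 at an unadjusted p under 0.05, and DESeq2 called 3 (0.0293%): Ctse, Ltf and Hspa8. For Ctse (chr1:131638306-131675505, plus strand) the log2 fold change was 2.47 ± 0.34 (SE), with an adjusted p of 0.196 in edgeR and 0.000336 in DESeq2. For Hspa8 it was -0.85 ± 0.13 (SE) (0.226 and 0.0180), and for Ltf it was -2.20 ± 0.33 (SE) (0.226 and 0.00218). Ltf had 38.0 and 6.37 CPM in tamoxifen+rapamycin mice, 190.3 and 19.8 CPM in late rapamycin mice and 40.1 and 12.5 CPM in tamoxifen mice, where the mouse of day 1 was above that of day 2 in each treatment. Fam102b had the smallest edgeR p of this comparison, with a log2 fold change of 1.32 ± 0.17 (SE) and an adjusted p of 0.196. Car1, a carbonic anhydrase of the erythroid lineage, had 5.95 and 8.07 CPM in tamoxifen+rapamycin mice, 27.9 and 22.3 CPM in late rapamycin mice and 7.91 and 9.35 CPM in tamoxifen mice, with a log2 fold change of -1.91 ± 0.32 (SE) and an adjusted p of 0.244. Nxpe5, from the list of genes called in stem cells of these mice earlier, had 13.3 and 17.0 CPM in tamoxifen+rapamycin mice, 3.43 and 3.87 CPM in late rapamycin mice and 4.52 and 4.36 CPM in tamoxifen mice, with a log2 fold change of 1.96 ± 0.37 (SE) and an adjusted p of 0.313.

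Primary granule genes were even between these groups, with 8 of 16 positive and a median of 0.00030. This list holds Elane, Prtn3 and Mpo, by which the members were chosen, so its values are a description. Secondary granule genes were negative in 13 of 13, with a median of -1.97, or -0.35 without the first late rapamycin mouse. Heat shock genes were negative in 11 of 11 (median -0.63, or -0.41 without that mouse), and only 2 of 25 folding genes were positive (median -0.25, or -0.092 without it). Of 14 cholesterol synthesis genes 3 were positive, with a median of -0.085. The median over all genes was -0.0060 with that mouse and 0.0068 without it. Each pair of comparisons shares the mice of 1 treatment, so the lists' values in 1 comparison are not independent of those in another.

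Median log2 fold changes of 6 more groups lay between -0.24 and 0.21. The 16 genes of granule sorting and packing had medians of 0.046 for tamoxifen+rapamycin against tamoxifen, 0.14 for late rapamycin against tamoxifen and -0.0032 for tamoxifen+rapamycin against late rapamycin. The 21 tested granulocyte transcription factors had medians of 0.0058 for tamoxifen+rapamycin against tamoxifen, 0.16 for late rapamycin against tamoxifen and 0.043 for tamoxifen+rapamycin against late rapamycin; Gfi1 had 87.9 and 72.2 CPM in tamoxifen+rapamycin mice, 69.5 and 62.7 CPM in late rapamycin mice and 72.9 and 64.8 CPM in tamoxifen mice, and each rapamycin treatment overlapped with tamoxifen. The 14 tested receptors for colony factors and adhesion had medians of -0.087 for tamoxifen+rapamycin against tamoxifen, -0.24 for late rapamycin against tamoxifen and 0.12 for tamoxifen+rapamycin against late rapamycin; Csf3r had 98.0 and 81.6 CPM in tamoxifen+rapamycin mice, 109 and 109 CPM in late rapamycin mice and 89.3 and 78.5 CPM in tamoxifen mice, highest in both late rapamycin mice. Genes of translation factors with terminal oligopyrimidine tracts, whose translation mTORC1 controls, had medians of 0.029 for tamoxifen+rapamycin against tamoxifen, -0.069 for late rapamycin against tamoxifen and 0.10 for tamoxifen+rapamycin against late rapamycin. The 20 lysosome and autophagy genes had medians of 0.074 for tamoxifen+rapamycin against tamoxifen, 0.16 for late rapamycin against tamoxifen and -0.055 for tamoxifen+rapamycin against late rapamycin, and 16 interferon response genes had medians of -0.021 for tamoxifen+rapamycin against tamoxifen, 0.21 for late rapamycin against tamoxifen and -0.019 for tamoxifen+rapamycin against late rapamycin.

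Leaving out the first late rapamycin mouse raised the number of calls to 95 between tamoxifen+rapamycin and tamoxifen (42 higher and 53 lower), to 36 between late rapamycin and tamoxifen (17 higher and 19 lower), and to 62 between tamoxifen+rapamycin and late rapamycin (32 higher and 30 lower). In each comparison 10570 genes were tested. The spread was then estimated from 5 mice in 3 treatments and 2 days, and the lone late rapamycin mouse was assumed to vary like the other groups. Most genes called between tamoxifen+rapamycin and tamoxifen had the same sign on both days. They were picked from these same mice, so this agreement is no separate support for the calls. Plekha7, Ctse, Fam102b and Eif3j2 were among the genes called between tamoxifen+rapamycin and tamoxifen, and Plekha7, Rabgef1, Adgrg1, Hsph1 and Serpinf1 among those called between late rapamycin and tamoxifen. Cd47, the surface ligand that protects cells from being engulfed, was called between tamoxifen+rapamycin and tamoxifen with a log2 fold change of 0.79; it had 656 and 821 CPM in tamoxifen+rapamycin mice, 754 and 588 CPM in late rapamycin mice and 411 and 442 CPM in tamoxifen mice. Leaving out the second late rapamycin mouse instead gave 89, 2612 and 2499 calls in these comparisons, with the first as the lone late rapamycin mouse. The calls without the first mouse also took in genes whose mice of 1 treatment disagreed, such as Chil3 with 49.9 and 33.1 CPM in tamoxifen+rapamycin mice, 659 and 161 CPM in late rapamycin mice and 68.4 and 199 CPM in tamoxifen mice. These genes were named after their values were seen.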

How the data were processed

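Single-cell RNA and hashtag UMIs of bone marrow cells were measured in 2 droplet libraries (Chromium 3′ v3 with TotalSeq B hashtags, per the labels' protocols), each pooling 3 mice on 1 day. The deposited files hold raw UMI counts per gene and cell as made by the authors with Cell Ranger: version 7.0.0 with mm10 per the submitters' processing notes, version 8.0.1 per the file headers. Whether intronic reads were counted is not given in the sources used here. Hashtag counts were read from the same matrices, and hashtags were tied to treatments by the deposited hashtag table.

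From these counts, cells were filtered and members chosen by the limits stated above. The members and the gene lists were chosen with earlier results of these data known. UMIs of the members were summed per mouse (1605018 to 5837834 UMIs), and CPM are relative to that sum. Treatments were compared with edgeR 4.0.16 (limma 3.58.1, R 4.3.3; filterByExpr, TMM, quasi-likelihood test with treatment and day, Benjamini-Hochberg over all 10250 genes), and DESeq2 1.42.0 was the alternative. Shares were compared by exact permutation tests over mice. The fit was tested on simulated counts. Days enter as a block because the labels say that mice of a number were processed on 1 day; deviations of same-day mice correlated at 0.134, -0.0011 and 0.085 in the 3 pairs of treatments. Named genes are called genes whose 2 days agree in direction, then genes with the smallest p, up to 3 genes of each list, and the leading genes of each comparison of cells; exceptions are said to be chosen after their values were seen. Cells under the hashtag limit were left out. How many doublets remained was not measured, and no doublet caller was run. Cells with few UMIs limit detection, so shares of cells with a UMI are given after thinning each cell to 3000 UMIs at random, which leaves out 1 to 8 members per mouse. The mice are separate animals, 2 per treatment. Gene positions are from GENCODE vM21 (32235 of 32285 gene IDs matched), and promoter sequences from RefSeq. Python 3.11.15 with numpy 2.4.6, scipy 1.17.1, pandas 2.3.3 and matplotlib 3.10.9 was used.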

Additional observations from a re-analysis of the deposited data

How the results depend on the processing

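With 2 mice per treatment, the exact permutation test of the shares could not pass a threshold, and the counts of called genes moved with single mice. Between tamoxifen+rapamycin and tamoxifen, edgeR's 0 calls became 44 with no filter on low counts and 0 to 95 when 1 mouse was left out (2 without the first and 0 without the second tamoxifen+rapamycin mouse, 95 and 89 without the first and second late rapamycin mouse, 36 and 18 without the first and second tamoxifen mouse). Between late rapamycin and tamoxifen, the 1 call became 6 with DESeq2, 250 with no filter, 6 in members with under 3 UMIs of Ltf, Camp and Ngp, and 0 in the unpaired fit with no replicate block, in members chosen after thinning, with no mature gene, with F13a1 up to 1 UMI and with no limit on F13a1; leaving out 1 mouse gave 5 to 2612 (5, 7, 36, 2612, 12 and 233 in the same order). Between tamoxifen+rapamycin and late rapamycin, 0 calls became 3 with DESeq2, 290 with no filter, 3 in members with under 3 UMIs of those genes, and 1 to 2499 when 1 mouse was left out (1, 5, 62, 2499, 191 and 188). The replicate block changed no other count: without it edgeR made 0 calls in all 3 comparisons. The limits on F13a1 and on Ltf, Camp and Ngp were alternatives chosen after seeing the data. A lone mouse was assumed to vary like the other groups, and the cause of these changes was not tested.

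The share differences kept their direction in the other settings tried, at 0.933 to 2.25 points for tamoxifen+rapamycin minus tamoxifen and 1.49 to 6.44 points for late rapamycin minus tamoxifen, with 0.668 to 1.61 and 0.569 to 5.00 points when 1 mouse was left out. Tamoxifen+rapamycin minus late rapamycin was -4.35 to -0.409 points, and -3.87 to 0.567 points when 1 mouse was left out, turning positive without the first late rapamycin mouse.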

Other observations

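The values of the following genes differed between mice of a treatment or came from few members, and were chosen after they were seen. Prg2, the major basic protein of eosinophils, had 47.2 and 95.2 CPM in tamoxifen+rapamycin mice, 9.42 and 6.45 CPM in late rapamycin mice and 351 and 0.623 CPM in tamoxifen mice on 103 and 224, 55 and 15, and 621 and 1 UMIs, and these came from 1 to 6 members of a mouse; in the first tamoxifen mouse 381 of 621 UMIs lay in 1 cell. Cpa3, found in 38 to 76 members of each mouse, had 82.9 and 128 CPM in tamoxifen+rapamycin mice, 15.2 and 113 CPM in late rapamycin mice and 140.2 and 196 CPM in tamoxifen mice. BC018473 had 0.458 and 179 CPM in tamoxifen+rapamycin mice, 204 and 1.29 CPM in late rapamycin mice and 2.26 and 0 CPM in tamoxifen mice, so that 1 mouse of tamoxifen+rapamycin and 1 of late rapamycin, of different days, were high. The chemokine receptor genes Ccr2 and Ccr1 varied between mice of a treatment: Ccr2 had 159.8 and 19.5 CPM in tamoxifen+rapamycin mice, 34.6 and 20.6 CPM in late rapamycin mice and 141 and 107 CPM in tamoxifen mice, and Ccr1 had 53.6 and 2.55 CPM in tamoxifen+rapamycin mice, 9.42 and 0.43 CPM in late rapamycin mice and 42.4 and 45.5 CPM in tamoxifen mice. Tppp3, the gene that drives the Cre of these mice, had 1 UMI over all members, in the first late rapamycin mouse.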
